A study of Caenorhabditis elegans with 2 samples.

Results

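Divergent promoter peaks are binding sites of DPL-1 that lie between, or beside, the starts of genes read in opposite directions. They were taken from the authors' optimal list of peaks on the assembly ce11, which had been cut at a depth set by IDR, the irreproducible discovery rate, from how well peak ranks repeat between calls. A nuclear peak was a member when its summit lay from 1000 bp upstream to 500 bp downstream of annotated protein-coding transcript starts of at least 2 genes on opposite strands. Of 1522 nuclear peaks, 523 met this rule (34.4%, 95% exact binomial interval 31.98% to 36.8%), against 729 in the window of 1 gene, 33 in windows of several genes on 1 strand and 237 outside promoter windows. The 523 peaks lay at 514 distinct gene pairs and touched 1061 genes.

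The peaks come from chromatin immunoprecipitation and sequencing (ChIP-seq) of young adult Caenorhabditis elegans taken whole and of mixed sex, in 2 biological replicates that form a single group. The strain, YL390, carried the integrated transgene vrIs48, in which the pie-1 promoter drives DPL-1 fused to GFP and FLAG, followed by the 3′ UTR of dpl-1, and an intact copy of unc-119 rescues the unc-119(ed3) mutation on chromosome III. The labels describe the ChIP as one of the GFP fusion while their antibody field reads dpl-1, so whether untagged DPL-1 was also precipitated is not known. The pie-1 promoter is known as a germline promoter, and the level of the tagged protein in each tissue was not measured. None of the 523 peaks touched pie-1, dpl-1 or unc-119 (0 peaks), the genes of which the transgene carries parts. The authors' peak caller gave each peak a signal value against the control. It ranks peaks within 1 list and is not on a common scale between the pooled list and the replicate lists. Where a pair of signals or ranks is given below, the first is that of replicate 1 and the second that of replicate 2.

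DPL-1 is the worm DP protein. It pairs with the E2F factor EFL-1 to bind DNA, and together with the retinoblastoma-like protein LIN-35 and the MuvB proteins it forms the DREAM complex, which represses cell cycle and germline genes in somatic cells, while E2F and DP also act on germline and oogenesis genes. In a compact genome such as that of the worm, neighbouring genes often start back to back, and 1 stretch of DNA then holds the promoters of both. A peak there cannot be assigned to 1 of the 2 genes from its position. Many annotated starts in worms are trans-splice sites rather than the first transcribed base, so distances to a start are distances to the annotation.

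At many strong peaks the summit fell on or next to an E2F-type sequence, and these are shown because they let the position of the protein be read against both starts. On either strand the search took the form TTCCCGC, the form TTCGCGC, the form TTGCCGC and the form TTGGCGC as E2F-type, and a match is a description of the letters, not a measured site. Each line gives 30 bases of ce11, plus strand, 5′ to 3′, with the match in capitals, for 10 of the strongest named pairs whose match was centred within 20 bp of the summit. A match on the minus strand reads on the plus strand as its reverse complement.
tbb-1/rib-2 at chrIII:10742661-10742690: gaatgggttttTTGGCGCcacgcgtcgcaa
Y53F4B.9/Y53F4B.11 at chrII:15010602-15010631: aaaatcaacatTTCGCGCtgtctcactaga
npp-3/top-2 at chrII:11874867-11874896: gctgtgtatttTTCGCGCgttcgctgcgag
T10B5.3/knl-3 at chrV:1868796-1868825: cagtgacggggTTGGCGCggcaaattaacc
W03C9.5/mex-1 at chrII:11968442-11968471: tagcccgtggaGCGGGAAattttggatttt
ran-1/dkc-1 at chrIII:10748131-10748160: gccagatttgcGCGCCAAaatgaacaaaat
rab-18/kbp-4 at chrIII:1080774-1080803: gagacccgatgGCGCGAAaatggatttgtt
puf-3/afmd-2 at chrIV:13512340-13512369: aaatccaaaatTTCCCGCgcaaaaacgaaa
rpb-12/aly-2 at chrIV:9147183-9147212: tcgagaaaaaaGCGCGAAaattcgcgaatt
spn-4/spe-39 at chrV:6785055-6785084: aaaatcaaaatTTCGCGCctttgtgatctt

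Within 100 bp of the summit, 146 of the 523 peaks (27.9%) held both an E2F-type match and the letters of a CHR-type element (TTCGAA or TTTGAA on either strand). The share was close to the 26.6% of all nuclear peaks and the 28.4% of peaks in the window of 1 gene. Through CHR-type sequences the MuvB protein LIN-54 is known to bind beside E2F-type sites. The named pairs below are examples and were not taken in order of signal. They show both matches in capitals in a window of 30 bases placed to hold them. The matches are 8, 11, 7 and 0 bases apart in the order given. Named pairs not printed here also held both, such as Y53F4B.9/Y53F4B.11, npp-3/top-2 and T10B5.3/knl-3, with 0, 13 and 15 bases between the matches. Their signals were below that of tbb-1/rib-2 and above those of the other pairs printed.
tbb-1/rib-2 at chrIII:10742654-10742683: ggttTTCGAAtgggttttTTGGCGCcacgc
ran-1/dkc-1 at chrIII:10748139-10748168: tgcGCGCCAAaatgaacaaaaTTCGAAaat
Y47D3A.1/pola-1 at chrIII:11142329-11142358: gcagcGCGCGAAgcaaattTTCAAAcaatt
col-38/rpl-5 at chrII:8569476-8569505: ccttgctgTTTGAATTCCCGCgcctgcgca

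The strongest divergent peaks joined genes of very different kinds, and most had the summit between the starts and an E2F-type match near it. Among the 15 of highest signal (185 to 482), 12 held an E2F-type match within 100 bp of the summit and 14 had the summit between the 2 starts. Their starts were 98 to 1603 bp apart, and they ranked 3 to 271 in the list of replicate 1 and 5 to 60 in that of replicate 2. The peak of highest signal, 482, lay at chrIII:10759083-10759373 between K01G5.10 and tasp-1, which encodes a taspase-type protease. It had a signal of 130 in replicate 1 and 356 in replicate 2, ranks 3 and 5, and its summit was 57 bp upstream of the tasp-1 start and 728 bp upstream of the K01G5.10 start. The peak at chrIII:10742550-10742798 lay between tbb-1, a beta-tubulin gene, and rib-2, a heparan sulfate glycosyltransferase gene, and had a signal of 96.1 in replicate 1 and 211 in replicate 2. The summits of both replicates fell on the same base as the pooled one there, at the centre of the TTGGCGC printed above. For npp-3, a nucleoporin gene, and top-2, the topoisomerase II gene, the signal was 56.8 and 205 in the replicates, and the summit was 96 bp from npp-3 and 264 bp from top-2.

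**Figure D1:**
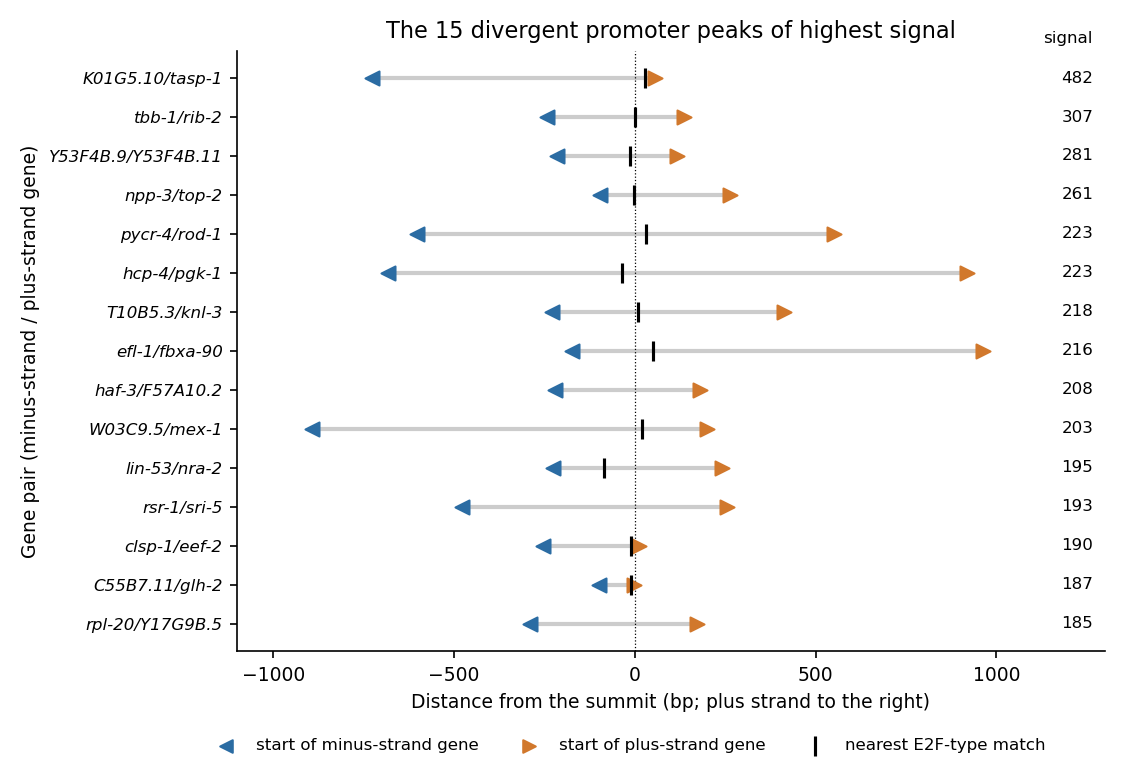
Positions of the annotated starts (triangles) and of the nearest E2F-type match (black tick) relative to the summit (dotted line), in bp, for the 15 divergent promoter peaks of highest signal, with the pooled signal at the right. Of the 15 peaks 14 have the summit between both starts, and the starts are 98 to 1603 bp apart.

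Several named pairs include a gene of the kinetochore, the protein assembly that ties chromosomes to the spindle; they are described together, and no count of such genes was tested. The peak between pycr-4, a pyrroline-5-carboxylate reductase gene, and rod-1, a spindle checkpoint gene, had a signal of 62.6 in replicate 1 and 162 in replicate 2. Its summit was almost central, 604 bp from pycr-4 and 551 bp from rod-1. The peak between hcp-4, the CENP-C gene, and pgk-1, the phosphoglycerate kinase gene of glycolysis, ranked 73 and 24 with signals of 47.6 and 173. In that pair of 1603 bp both starts were far from the summit, at 684 bp and 919 bp. For T10B5.3 and knl-3, which encodes a kinetochore protein, the signals were 61.7 and 160, and the summit was 229 bp from T10B5.3 and 413 bp from knl-3. At rab-18, a small GTPase gene, and kbp-4, a kinetochore gene, the summit was 4 bp downstream of the rab-18 start and 130 bp upstream of kbp-4, with signals of 47.3 and 110, and it also lay in the window of the polarity gene par-2.

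Of the 9 listed genes of the DREAM complex 6 were bound, beside 9.15% of all nuclear protein-coding genes. Of these 6, 4 (66.7%) were at divergent peaks, near the 58% of all bound genes. The peak beside efl-1, which encodes the E2F partner of DPL-1, had signals of 62.7 and 157, and its summit was 175 bp upstream of efl-1 and 964 bp upstream of fbxa-90, an F-box gene. The peak between lin-53, an RbAp46/48-type histone chaperone gene, and nra-2 had signals of 54.5 and 138 and was almost central, 226 bp from lin-53 and 241 bp from nra-2. For lin-35, the retinoblastoma-like gene, and vps-51, a gene of vesicle tethering, the signals were 42.3 and 123.2, and no E2F-type match was found within 100 bp. The fourth was lin-54, which shared its peak with the ribosomal protein gene rpl-12: the signals were 28.6 and 95.6, and rpl-12 was nearer, at 27 bp against 366 bp.

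Germline and meiotic genes formed further pairs. The maternal zinc-finger gene mex-1 and W03C9.5 shared a peak with signals of 67.3 and 134, 200 bp from mex-1 and 893 bp from W03C9.5. The peak at C55B7.11 and glh-2, which encodes a Vasa-type helicase of germ granules, had signals of 49.8 and 141 and lay within 1 bp of the glh-2 start. The peak between rec-8, the meiotic cohesin gene, and mex-5 had signals of 32.6 and 96.8 and no E2F-type match. Katanin subunit gene mei-2 and synaptonemal complex gene syp-6 were 139 bp and 134 bp from their shared summit, with signals of 53.8 and 98.6. Both partners of the last 2 pairs are genes of meiosis or of the oocyte-to-embryo transition. Of the 523 peaks, 250 had at least 1 partner in any of the 23 gene lists and 49 had both. Whether 49 is more or fewer than unrelated partners would give was not tested. Both partners were in the same list at 4 peaks, rps-10/rpl-24.1, sec-61.B/trap-3, rsp-2/rsp-1 and snr-3/rsp-5, which are named here after their values were seen.

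In the typical member the starts were well apart and the summit lay between them. The median spacing was 519 bp, with quartiles of 308.5 and 752.5 bp, and the range ran from starts that overlap by 205 bp to starts 1831 bp apart. The summit lay between the starts at 483 peaks (92.4%, 89.7% to 94.5%), beyond 1 of them at 35 and at overlapping starts at 5. The nearer start was at a median of 148 bp and the farther at 352 bp, a difference in this direction being fixed by how the 2 are named. Of the 483 summits between the starts, 220 were in the middle one of 3 equal parts of the gap (45.5%, 41.0% to 50.1%). The median summit stood at 31.2% of the gap from the nearer start. The peak intervals, mostly of 290 bp, covered both starts in 31 cases, 1 start in 189 and neither in 303.

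Neither strand was favoured. The nearer start belonged to the plus-strand gene at 272 of 523 peaks (52%, 47.6% to 56.4%). At 83 peaks the distances to the 2 starts differed by less than 50 bp, so which start is nearer is weakly determined there. Among the 489 peaks found in both replicates, the same start was nearer in both replicates and in the pooled list at 433 (88.5%). Where it changed, the 2 distances differed by a median of 37 bp.

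Of all 2712 pairs of neighbouring, oppositely transcribed protein-coding starts up to 2000 bp apart, 510 had a summit in the shared window (18.8%, 17.4% to 20.3%). For comparison, 9.15% of nuclear protein-coding genes had a summit in a window of their own, but a pair was counted once for 2 genes and its shared window differs in length, so the 2 shares do not measure the same thing. By spacing, a peak was found at 73 of 407 pairs up to 250 bp apart (17.9%, 14.3% to 22%), 177 of 570 pairs from 250 to 500 bp (31.1%, 27.3% to 35.0%), 211 of 879 pairs from 500 to 1000 bp (24%, 21.2% to 26.97%) and 49 of 856 wider pairs (5.72%, 4.26% to 7.5%). By the rule, the length of the window that both genes share depends on the spacing and first rises, then falls. Its mean was 1162, 1368, 1277 and 565 bp in the 4 classes. Per megabase of shared window the classes held 154, 227, 188 and 101.3 bound pairs. The order of the classes was thus the same with and without allowance for window length, with the class from 250 to 500 bp highest and the widest lowest. Intervals cover counting only, since neighbouring pairs and peaks are not replicates.

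**Figure D2:**
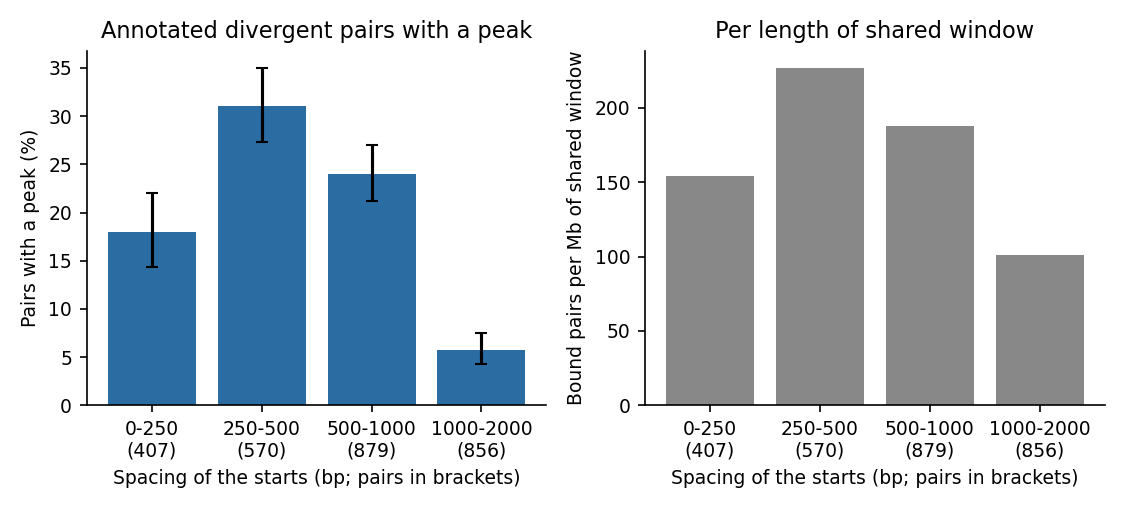
Share of annotated divergent pairs with a peak (left, percent with 95% exact binomial intervals) and bound pairs per megabase of shared window (right), by the spacing of the starts in bp; numbers of pairs are in brackets. The class from 250 to 500 bp is highest in both panels, at 31.1% and 227 per Mb.

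Divergent pairs on chromosome X were almost free of peaks, and X held few peaks of any kind, 53 of the 1522 nuclear peaks. A peak was found at 2 of its 187 pairs (1.07%), against 11% on chromosome V, 17.1% on II, 18.7% on IV, 28.7% on I and 30.8% on III. Of the 53 peaks on X, 3.77% were divergent, against 29.9% (II) to 39.2% (I) on the other chromosomes. The 2 peaks on X are named after their values were seen. The peak of mlc-6, a myosin light chain gene, and K04C1.5 had a pooled signal of 41.2, close to the nuclear median of 41.6, and signals of 15.4 and 29.7 in the replicates. The peak of sec-15, an exocyst gene, and C28G1.2 had a pooled signal of 24.6 and signals of 6.47 and 17.9.

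Gene lists were written from textbook function with earlier results of these data known, so their counts describe and support nothing by themselves. Over all 1828 bound genes, 58% were at divergent peaks, and most lists were near that share: 21 of 33 bound DNA replication genes, 46 of 67 cell cycle and mitosis genes, 15 of 24 DNA repair and checkpoint genes, 32 of 50 cytosolic ribosomal protein genes, 27 of 38 membrane traffic genes, 25 of 43 RNA processing genes and 20 of 36 proteasome and ubiquitin genes. The lists with a lower share were the oocyte and maternal genes (10 of 30) and the synMuv B and germline chromatin genes (5 of 14). Germ granule and small RNA genes (13 of 21), meiosis genes (9 of 14), embryonic polarity genes (6 of 8), mitochondrial ribosomal protein genes (10 of 16), translation genes (16 of 27), respiratory chain genes (11 of 18), nuclear pore and transport genes (14 of 26) and RNA polymerase and Mediator genes (12 of 21) were in between or higher. No test was made of any of these shares.

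The lists gave unlike counts for which partner the summit stood next to. Over all lists the listed gene was nearer at 93 of 201 peaks with 1 listed partner (46.3%, 39.2% to 53.4%), and 35.8% of all members held an E2F-type match. For DNA replication genes the summit was nearer the replication gene at 14 of 21 peaks (66.7%, 43.0% to 85.4%), at a median of 156 bp against 417 bp for the partner, and 15 of the 21 held an E2F-type match. For cytosolic ribosomal protein genes it was nearer the ribosomal protein gene at 9 of 30 peaks (30%, 14.7% to 49.4%), at a median of 311.5 bp against 173.5 bp, and 5 of 31 held a match. For RNA processing genes the summit was nearer the listed gene at 5 of 20 peaks (25%, 8.66% to 49.1%) and for nuclear pore and transport genes at 4 of 14 (28.6%, 8.39% to 58.1%). Other lists leaned toward the listed gene: proteasome and ubiquitin genes at 13 of 20 peaks, translation genes at 10 of 16 and mitochondrial ribosomal protein genes at 6 of 9. Germ granule and small RNA genes were nearer at 4 of 12 and embryonic polarity genes at 1 of 5. The intervals of the lists in the last 2 sentences all included an even split. Cell cycle and mitosis genes were the nearer partner at 25 of 48 peaks (52.1%, 37.2% to 66.7%), with a match at 32 of 48. The intervals of the ribosomal protein genes and of the RNA processing genes lie below an even split, and that of the replication genes includes it. These intervals were not adjusted for the number of lists, and the difference between lists was not tested.

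Single pairs show both arrangements. At Y47D3A.1 and pola-1, the gene of the DNA polymerase alpha catalytic subunit, the summit was 142 bp from pola-1 and 465 bp from Y47D3A.1, with signals of 39.1 and 92.0. At hpo-18, an ATP synthase subunit gene, and mcm-7, a gene of the replicative helicase, the summit was 186 bp from mcm-7 and 555 bp from hpo-18, with signals of 31.96 and 50.4. In both the replication gene was nearer and an E2F-type match was present. Ribosomal protein genes stood on either side. At rpl-20 and Y17G9B.5 the summit was 289 bp from rpl-20 and 173 bp from Y17G9B.5, with signals of 41.0 and 146. At ifet-1, a translational repressor gene of the germline, and rps-1 the summit was 239 bp from rps-1 and 529 bp from ifet-1, with signals of 30.6 and 92.0. At polh-1, the translesion polymerase eta gene, and rps-22 it was 125 bp from rps-22 and 141 bp from polh-1, with signals of 32.1 and 88.8. None of these 3 ribosomal protein pairs held an E2F-type match within 100 bp.

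**Figure D3:**
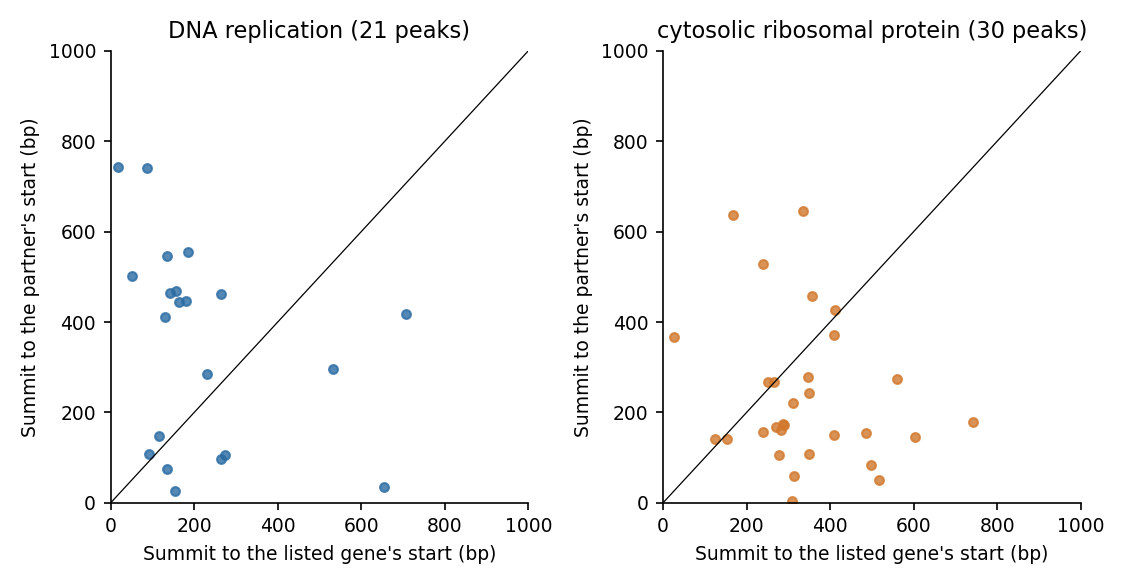
Distance in bp from the summit to the start of the listed gene (horizontal) and of its partner (vertical) for divergent peaks with 1 partner in the list of DNA replication genes (left, 21 peaks) or cytosolic ribosomal protein genes (right, 30 peaks); the line marks equal distances. The replication gene is nearer at 14 of 21 peaks (points above the line) and the ribosomal protein gene at 9 of 30.

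Some peaks joined a cell cycle or germline gene to a housekeeping gene, 17 among the 120 peaks with a cell cycle or germline gene and the 144 with a housekeeping gene. A similar pair was not counted in the 17 because clsp-1, the claspin gene of the replication checkpoint, was in no list. Its partner was eef-2, elongation factor 2. This pair had signals of 45.8 and 151, with eef-2 at 11 bp and clsp-1 at 254 bp and 3 E2F-type matches. Among the 17, the pair ctf-4, a replisome gene, and eef-1G had signals of 39.5 and 77.9, with eef-1G at 26 bp and ctf-4 at 154 bp. In both pairs the translation factor was nearer. Also outside the 17, the pair ran-1, the Ran GTPase gene, and dkc-1, a pseudouridine synthase gene, had signals of 61.04 and 104.3 and a match 3 bp from the summit. Of the 120 peaks with a cell cycle or germline gene 64 held a match (53.3%). Of the 144 with a housekeeping gene 38 held one (26.4%), and of 273 peaks with no listed partner 92 did (33.7%); the first 2 sets share peaks, and over all nuclear peaks the share was 37.2%.

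The tissue lists gave few peaks. No divergent peak touched a gene of the muscle list (0 of 30 genes, of which 1 was bound at another peak) or the intestine list (0 of 29, none bound), where 5.31% of all nuclear protein-coding genes were at divergent peaks, so lists of this size would hold few at the overall share. The cuticle collagen, neuron and sperm lists gave 7 peaks, 4 of them from the sperm list. In that order of lists, 2 of 176, 1 of 36 and 3 of 82 genes were at divergent peaks, beside the same 5.31%. The peaks included col-38/rpl-5, with signals of 42.6 and 63.9, where the collagen gene was 427 bp and the ribosomal protein gene 412 bp from the summit. At col-2 and ndc-80, a kinetochore gene, the summit was 239 bp from ndc-80 and 447 bp from col-2, with signals of 19.96 and 32.3. The neuronal vesicle gene ric-19 was the nearer partner, at 145 bp, of a peak with pmlr-1 at 283 bp and signals of 16.4 and 35.3. The other partner in these examples was a ribosomal protein gene, a kinetochore gene and an unlisted gene, and the data do not say on which partner the protein acted.

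Both replicates held most of these peaks. A summit within 100 bp was present in both replicate lists for 489 of 523 peaks (93.5%, 91.0% to 95.5%), beside 89.9% of all nuclear peaks. It was present in replicate 1 for 496 and in replicate 2 for 516. The replicate lists have 30000 entries each and reach far below the optimal list, and when only as many top peaks as the optimal list holds were allowed in each, 348 of 523 remained in both (66.5%). Over the peaks with a summit in the given replicate, the median rank was 652 in replicate 1 and 713.5 in replicate 2. The median distance between the replicate summits was 28 bp. Agreement followed the pooled signal, which is itself built from both replicates: all 130 peaks of the strongest of 4 equal groups by signal were matched in both (100%), then 96.2%, 90.8% and 87.02% of the next 3. The strongest peak without a match in a replicate was cdd-2/oef-1, named after its values were seen, with a pooled signal of 55.6 and no summit in replicate 2. Ranks could still differ widely, as for haf-3/F57A10.2, an ABC transporter gene and its neighbour, which ranked 271 and 20 with signals of 28.6 and 178. Likewise hpr-17, a checkpoint clamp-loader gene, with F32A11.1 ranked 821 and 105.

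**Figure D4:**
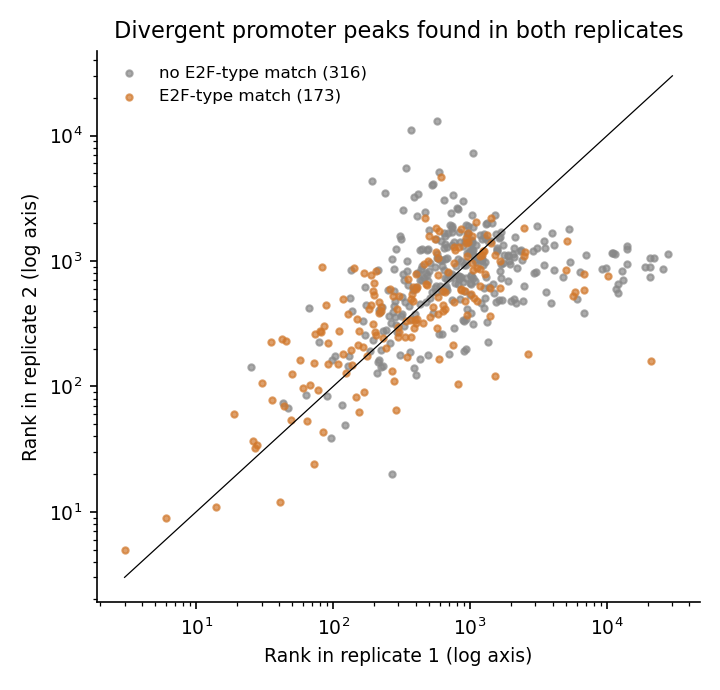
Rank by signal in replicate 1 and in replicate 2 (log axes, rank 1 strongest) of the 489 divergent promoter peaks found in both lists, coloured by an E2F-type match within 100 bp of the summit; the line marks equal ranks. Median ranks, each over the divergent peaks with a summit in that replicate, are 399 and 481.5 with an E2F-type match and 767 and 837.5 without.

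Divergent peaks were set against the peaks in the window of a single gene in 3 measures that the rule did not use, and no difference passed the adjusted threshold. A signal above the nuclear median was found for 296 of 523 divergent peaks (56.6%) and 376 of 729 single-gene peaks (51.6%), a difference of 5.02 percentage points (95% interval -0.58 to 10.6; two-sided Fisher's exact test, p = 0.0848, adjusted over the 3 tests 0.0992). The share matched in both replicates was higher by 3.65 points, 93.5% against 89.8% (0.498 to 6.66; Fisher's exact test, p = 0.0247, adjusted 0.0741). The share with an E2F-type match was 35.8% against 40.5%, a difference of -4.71 points (-10.1 to 0.757; Fisher's exact test, p = 0.0992, adjusted 0.0992). None of the 3 passed 0.05 after Benjamini-Hochberg adjustment and 1 did before it, and peaks are not replicates, so the tests describe these lists and not new worms. The intervals leave room for differences of the sizes given, so equality is not shown. The higher share matched in both replicates passed the threshold under other settings, with an adjusted p of 0.00336 for summits within 250 bp, 0.0292 for the narrower promoter window and 0.0369 when any overlap of the peak counted, and not for summits within 50 bp (0.385). The signal difference passed when any overlap of the peak counted (6.42 points, adjusted p = 0.0395, Fisher's exact test) and turned to -4.46 points (adjusted p = 0.274, Fisher's exact test) in the list cut at its median rank. The motif difference passed within 50 bp of the summit (-6.63 points, adjusted p = 0.0370, Fisher's exact test).

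The E2F-type sequence was concentrated at the summit. It was found within 100 bp of 187 of 523 summits (35.8%, 31.6% to 40.03%), against 37.2% of all nuclear peaks. In windows of the same 201 bp centred 500 bp to either side it was found at 7.07% and 5.74%, in the middle of 2202 annotated divergent pairs without a peak at 5.81%, and at 1080 weaker divergent summits of the pooled list at 7.31%. The same letters reversed, a control for base composition, were found at 16.1% of the members and at 4.21% and 5.35% of the flanks. Among the 187 peaks the nearest match was TTCGCGC at 65, TTGGCGC at 52, TTCCCGC at 46 and TTGCCGC at 24, and 38 peaks had 2 or more matches. The CHR-type letters are short and common: 67.9% of members held them, against 48.6% and 48.0% of the flanks, 58.3% of unbound pairs and 63.6% of single-gene peaks.

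Matches and signal went together. Peaks with an E2F-type match had a median signal of 64.5 and those without 40.9, and the share with a match was 58.5% in the strongest of the 4 groups by signal, then 37.4%, 25.19% and 22.1%. The same order appeared in each replicate over the peaks with a summit there. Median ranks were 399 against 767 in replicate 1 and 481.5 against 837.5 in replicate 2. The nearest match was a median of 25 bp from the summit and was read in the direction of the nearer gene at 94 of 187 peaks. The orientation was thus close to an even split. Peaks in the window of a single gene went the same way in signal and offset. Their median signal was 53.9 with a match and 37.4 without, and their nearest match was also a median of 25 bp from the summit.

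**Figure D5:**
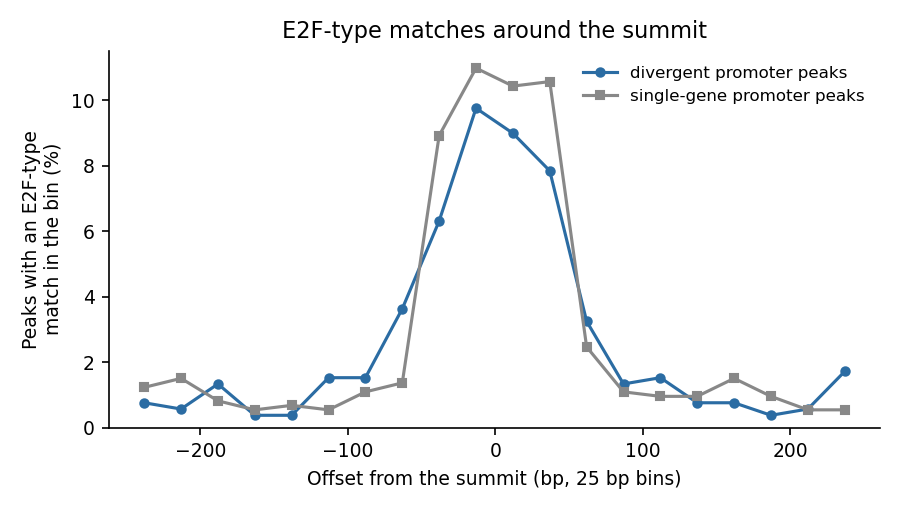
Share of peaks (percent) with an E2F-type match in each 25 bp bin of offset from the summit (bp), for divergent promoter peaks (circles) and single-gene promoter peaks (squares). Both lines peak within 50 bp of the summit and fall to low levels beyond 100 bp.

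At 9 pairs 2 separate peaks lay in the shared windows, named here after their values were seen: iff-1/cdk-1, spn-4/spe-39, skih-2/F01G4.4, F54D5.9/dnj-13, R107.5/cls-2, sna-2/T13F2.6, W03C9.5/mex-1, F18A1.7/rpa-1 and zip-4/nol-58. In some the 2 peaks were next to different genes. At spn-4, a maternal RNA-binding protein gene, and spe-39, the stronger summit (83.5) was 167 bp from spn-4 and the weaker (31.1) was 177 bp from spe-39. At F18A1.7 and rpa-1, the gene of the large single-stranded DNA binding subunit, the stronger summit (126) was 296 bp from F18A1.7 and the weaker (37.0) was 88 bp from rpa-1. The ranks were 389 and 295 for the first spn-4/spe-39 peak and 609 and 1451 for the second, and the weaker skih-2/F01G4.4 peak had no match in replicate 1. Where the farther start was over 300 bp away, at 294 peaks, 52 of those starts (17.7%) had a summit of the pooled list of 30000 within 150 bp, against 14.4% of all gene starts.

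The window rule has an edge. The members that reached farthest were T10E9.8/T10E9.2 (992 bp to the farther start, signal 82.4), egrh-2/lep-2 (987 bp, signal 33.8) and mlc-6/K04C1.5 (984 bp, signal 41.2). The peaks just outside were nstp-10/ehbp-1 (1010 bp, signal 81.8), nep-26/mdt-22 (1011 bp, signal 116) and gck-2/ZC404.1 (1015 bp, signal 31.5). Signals on the 2 sides of the edge overlap, so membership there is set by distance and not by strength.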

How the data were processed

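The authors deposited peak lists on ce10 and ce11. Only the ce11 lists were used, and the ce10 lists, reads, control and signal tracks were not analysed here. Per the deposited description files, each replicate had its list from its own reads and a control, the pooled list used the reads of both, and IDR reduced these to the optimal list. Which aligner and peak caller were run is not given in the sources used here. The signal of a peak is the value deposited by the authors, and all 1546 optimal peaks are the 1546 pooled peaks of highest signal, so a place in the list does not show detection in each replicate. Read depth is unknown and no counting error attaches to a signal. The labels number biological replicates, and nothing further is said of how the worms were grown.

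Starts were those of 29326 protein-coding transcript starts of 19985 genes in Ensembl 115 on WBcel235, which is the ce11 sequence, and bases came from the RefSeq copy of that assembly. The pair of a peak is the minus-strand and the plus-strand gene with the start nearest the summit. Replicate summits within 100 bp counted as matched, and motif searches covered both strands and reached 100 bp to each side of the summit. Shares have exact (Clopper-Pearson) intervals at 95%, differences have Newcombe intervals, and 3 two-sided Fisher's exact tests were adjusted by Benjamini-Hochberg with Python 3.11.15, numpy 2.4.6 and scipy 1.17.1. The assignment, matching and motif steps were tested on simulated data. Figures used matplotlib 3.10.9.

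The members, the 23 gene lists and the tests were chosen with earlier results of these data known. Named pairs follow a rule: the 15 of highest signal, the 2 highest of each list, the 10 highest with both partners listed, and the 3 pairs on each side of the window edge. Sequences are those of the 10 strongest named pairs outside chromosome I with a match centred within 20 bp of the summit. A further 4 are examples from the named pairs that hold both motifs, and were not taken in order of signal. Of the listed names 13 had no gene of that name in the annotation and were left out. Alternatives were other windows, 1 start per gene, the peak interval, a list cut to its stronger part, each replicate's own list, other match and motif distances, a longer motif and closer pairs. A last one, chosen after seeing the data, added the starts of non-coding transcripts of protein-coding genes.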

Additional observations from a re-analysis of the deposited data

How the results depend on the processing

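No paired analysis was possible because the 2 replicates form 1 group. Of 84 values recomputed under 14 alternatives, 67 stayed within the limit set for their kind (counts within 1.5 times, shares and the median within the 95% interval, tested differences on the same side of zero and of the threshold), 11 moved, 5 passed the threshold where the reported value did not and 1 reversed. With a window of 500 bp upstream and 250 bp downstream the divergent share of nuclear peaks was 23.7%, the median spacing 392 bp and the share of annotated pairs bound 13.2%; with 2000 and 1000 bp they were 44.1%, 615 bp and 22.4%. The list cut at its median rank gave 294 divergent peaks, 39.1% of its nuclear peaks, 94.6% with the summit between the starts and 10.7% of pairs bound, and reversed the signal difference to -4.46 points (Fisher's exact test, adjusted p = 0.274), the median being that of the shorter list. Pairs up to 1000 bp apart were bound in 24.8%. With two-sided Fisher's exact tests and Benjamini-Hochberg adjustment, the signal difference passed with the peak interval (6.42 points, adjusted p = 0.0395). The difference in matching passed with the narrower window (4.43 points, 0.0292), the interval (4.03 points, 0.0369) and summits within 250 bp (2.80 points, 0.00336). The motif difference passed within 50 bp (-6.63 points, 0.0370). The size of tested differences could still change, that of the motif to as little as -1.67 points. Across the other settings the adjusted p ran from 0.109 to 0.286 for signal, 0.0508 to 0.385 for matching and 0.0830 to 0.583 for the motif. Leaving out replicate 1 or 2 gave 495 and 519 divergent peaks. The causes were not tested. Windows set the counts by construction. Without reads, no peak has a counting error, and a peak missing from a replicate list may lie below the limit of 30000 entries.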

Other observations

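Further pairs of the gene lists, with replicate 1 before replicate 2, show how mixed the partners are. The peak between tag-77 and mes-6, a gene of the worm Polycomb complex, had signals of 29.2 and 71.5 and lay 16 bp from mes-6. The peak between mrg-1, a chromodomain gene needed in the germline, and spcs-2, a signal peptidase gene, had signals of 14.96 and 61.7 and ranks of 757 and 294. The Argonaute gene wago-4 and F58G1.2 shared a peak with signals of 34.1 and 78.1, 181 bp from wago-4. The Sm protein gene snr-6 and Y49E10.16 shared one with signals of 31.4 and 92.9, 257 bp from snr-6, with no E2F-type match and 4 CHR-type matches. At zip-4 and nol-58, a gene of the box C/D snoRNA particle, the stronger peak had signals of 31.3 and 78.02 and lay 29 bp from zip-4.

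At par-5, a 14-3-3 gene, and M117.3 the summit was beyond 1 of the starts, 722 bp upstream of par-5 and 440 bp downstream of the M117.3 start, with signals of 63.9 and 92.4 and ranks of 25 and 144. The peaks whose starts overlap numbered 5, and such-1/Y66D12A.16, with starts 205 bp past each other, ranked 5803 in replicate 1 and 570 in replicate 2. Windows of 3 genes were reached by 32 peaks and windows of 4 by 1, at Y62E10A.20/Y62E10A.23 with lsm-3 and mdt-9. At 262 peaks at least 1 partner was known by a sequence name only, and at 38 both were. These pairs were chosen after their values were seen, except those of the gene lists.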
